A study of Mus musculus with 2 samples.

Results

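The cells described here are alveolar type 2 (AT2) cells of mouse lung that carried a high count of *Lcn2*, the gene of the secreted siderophore-binding protein lipocalin 2. A cell was included when it had a UMI (unique molecular identifier) in at least 4 of the 7 AT2 genes *Lamp3*, *Slc34a2*, *Abca3*, *Etv5*, *Cxcl15*, *Hc* and *Napsa*, and at least 3 *Lcn2* UMIs. It also had to have at most 2 UMIs of *Col1a2* and *Col3a1* together, no *Ptprc* UMI, and a UMI in fewer than 3 of the ciliated cell genes *Foxj1*, *Ccdc153*, *Tmem212* and *Dynlrb2*. The rule chose 4194 of the 6242 cells that passed these gates before *Lcn2* was read, out of 23032 cells kept, for 200 to 6000 genes and at most 10% mitochondrial UMIs, from the 23349 deposited. The control library held 1777 of them and the *Gli1 HHIPCKO* library 2417, and these cells are called members below. They were chosen by *Lcn2* and the gate genes, so the levels of those genes in them are descriptions of the rule.

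The study asked what loss of *Hhip*, which encodes a membrane-bound inhibitor of hedgehog ligands, from *Gli1*-expressing stroma does to the postnatal lung. Both mice carried *Gli1 creERT/+* and *Hhip flox/flox*. The control mouse was injected with oil and the *Gli1 HHIPCKO* mouse with tamoxifen, daily for 3 days from birth, and both lungs were taken at 14 days. Stromal and CD326-positive epithelial cells were sorted without CD31-positive endothelial and CD45-positive immune cells, mixed at 3:1 and run as 1 droplet library per mouse. The control library held 43291709 UMIs and the *Gli1 HHIPCKO* library 52338969. There were no replicates, so the text gives values, ratios and counting intervals and no test of a difference between mice.

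*Gli1* drives Cre in stromal cells, so AT2 cells were not the target of the deletion. They can meet its consequences through neighbouring cells, and they met tamoxifen or oil directly. Tamoxifen, the individual mouse, its sex-linked genes, the library and the deletion all differed between the same pair of samples and cannot be told apart. In the members, *Xist* (ENSMUSG00000086503, chromosome X, 103460366 to 103483254) had 4 UMIs in the control library and 1832 in the *Gli1 HHIPCKO* library, while *Eif2s3y* on the Y chromosome had 306 and 0. The libraries shared 193 cell barcodes, and 8 of these were members in both. Positions throughout are those of GRCm38 with GENCODE vM21.

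AT2 cells line the alveoli, make and recycle surfactant and renew the alveolar epithelium. They also secrete antimicrobial and acute phase proteins, among them lipocalin 2, which withholds iron from bacteria by binding their siderophores. In other settings epithelial *Lcn2* responds to interleukin 1, interleukin 6 and related signals. Hedgehog ligands made by lung epithelium act on neighbouring stroma, where *Gli1* and *Hhip* are targets of the pathway.

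*Lcn2* (ENSMUSG00000026822, chromosome 2, 32384633 to 32388252, minus strand) was spread over the gated AT2 cells without a gap at the threshold, as the plot of *Lcn2* bins shows. In the control library 54.6% of 3253 gated cells were members (95% exact Clopper-Pearson interval 52.9 to 56.3%), and in the *Gli1 HHIPCKO* library 80.9% of 2989 were (79.4 to 82.3%). These and the other intervals, exact Poisson for levels, exact conditional binomial for ratios and normal for a difference of ratios, cover counting error only. Cells without an *Lcn2* UMI numbered 519 in the control and 183 in the *Gli1 HHIPCKO* library, and those with 1 or 2 numbered 957 and 389. At the upper end, over 20 *Lcn2* UMIs were counted in 60 control cells (1.84% of the gated cells) and 468 *Gli1 HHIPCKO* cells (15.7%), and the highest count of a cell was 63 and 325. The share moved with the threshold: at 2 or more UMIs it was 68.4% and 87.8%, and at 5 or more 34.7% and 67.0%.

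Depth differed along this range. Median UMIs per cell went from 2837 in *Lcn2*-negative to 6792 in over-20 control cells, and from 1662 to 6896 in the *Gli1 HHIPCKO* cells. With each gated cell thinned to 2000 UMIs, 25.8% of control and 51.1% of *Gli1 HHIPCKO* cells still had at least 3 *Lcn2* UMIs, and 44.4% and 68.8% had at least 2. The 324 control and 187 *Gli1 HHIPCKO* cells with fewer UMIs were left out. As a background, 1.27% of 4579 control and 2.93% of 5868 *Gli1 HHIPCKO* cells of a fibroblast gate had any *Lcn2* UMI, at median depths of 3114 and 3323 UMIs. At least 3 *Lcn2* UMIs were seen in 0.0218% and 0.0511% of those fibroblasts. The AT2-like cells that the gates removed for stromal, immune or ciliated genes included 486 control and 826 *Gli1 HHIPCKO* cells with at least 3 *Lcn2* UMIs.

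**Figure D1:**
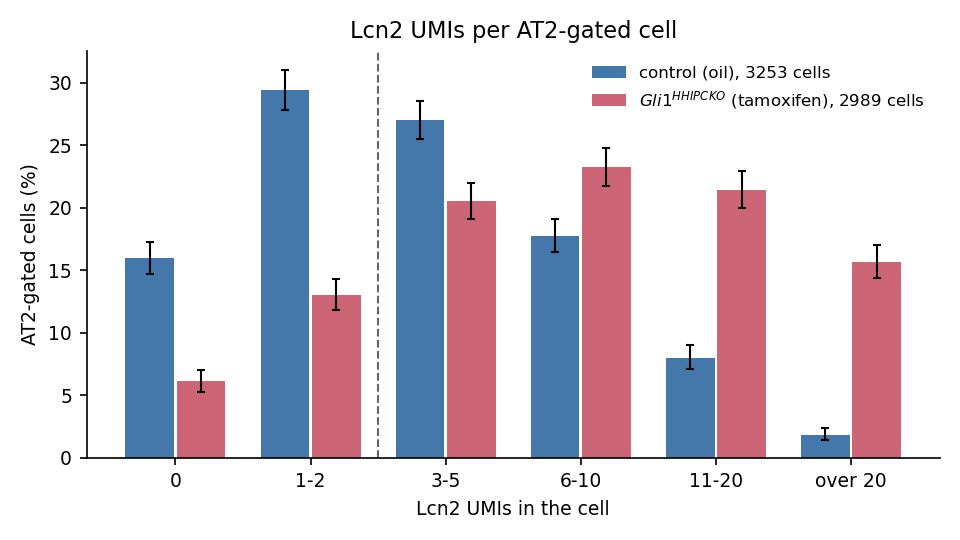
Share of gated AT2 cells (%) by *Lcn2* UMIs per cell in the control and *Gli1 HHIPCKO* libraries, with 95% exact binomial intervals and a dashed line at the threshold of 3 UMIs. Cells without an *Lcn2* UMI made up 16.0% in the control and 6.12% in the *Gli1 HHIPCKO* library, and those over 20 UMIs were 1.84% and 15.7%.

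Levels just outside and just inside the threshold lay close together for most of the proposed markers. Between the 448 control cells with 2 *Lcn2* UMIs and the 350 with 3, the level of *Chil1*, in counts per 1000000 UMIs (CPM), went from 1489 to 1624, that of *Lrg1* from 46.7 to 57.0, and that of *Lyz1* from 5266 to 5321. In the *Gli1 HHIPCKO* library, with 207 and 196 such cells, *Chil1* went from 1830 to 1867 CPM, *Lrg1* from 53.1 to 81.5 and *Lyz1* from 5319 to 6342. *Sftpc* was at 304987 and 308775 CPM in the control cells and at 266765 and 272717 CPM in the *Gli1 HHIPCKO* cells.

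The 12 AT2 markers, 7 of them gate genes and so high in part by rule, together made up 357030 CPM of the control members and 323480 CPM of the *Gli1 HHIPCKO* members. *Sftpc* (ENSMUSG00000022097, chromosome 14, 70520949 to 70524081), the surfactant protein C gene, was at 311160 and 272750 CPM. The 10 alveolar type 1 (AT1) markers, led by *Ager*, summed to 1743 CPM in the control library and to 1287 CPM in the *Gli1 HHIPCKO* library. Among other lineages, 7 immune markers summed to 26.4 and 11 CPM (*Ptprc* was 0 by rule), and 9 neutrophil markers to 0.804 and 0.526 CPM with 6 and 8 of the 9 at 0. The 9 macrophage markers summed to 1.91 and 6.51 CPM, the 6 endothelial ones to 33.6 and 19.3 CPM, and the 7 fibroblast ones, led by *Col3a1*, which the rule limited along with *Col1a2*, to 132 and 162.5 CPM.

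Globin and club cell transcripts were also present. The 5 erythroid markers, led by *Hbb-bs*, summed to 4235 CPM in the control members and to 3921 CPM in the *Gli1 HHIPCKO* ones. The 8 club cell markers summed to 2564.5 and 757 CPM, with *Scgb1a1* leading at 1899 CPM in the control and *Hp* at 361 CPM in the *Gli1 HHIPCKO* members. Smooth muscle and pericyte markers summed to 60.3 and 63.3 CPM, ciliated ones to 142 and 98.4 CPM, led by *Sec14l3*, and mesothelial ones to 3.82 and 2.83 CPM. In *Lcn2*-negative cells the club list summed to 7989 and 893 CPM, the fibroblast list to 283 and 427 CPM, the smooth muscle list to 47.0 and 381 CPM and the erythroid list to 4746 and 26304 CPM. The median member had 5389 UMIs and 1627 genes in the control and 5925 UMIs and 1793 genes in the *Gli1 HHIPCKO* library, with mitochondrial shares of 0.721% and 0.801%. In *Lcn2*-negative cells these shares were 1.10% and 2.66%. The part of these differences in the comparisons that follow was not tested.

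The first comparison set members against *Lcn2*-negative AT2 cells within each library, to describe what else accompanied the *Lcn2* that chose them. In the control library 6 of 4728 genes tested (0.127%) were at least 2-fold higher in members and 11 (0.233%) at least 2-fold lower. In the *Gli1 HHIPCKO* library 89 of 5163 (1.72%) were higher and 140 (2.71%) lower, against 183 *Lcn2*-negative cells of a median of 1662 UMIs. These counts moved widely with the processing: with members at 2 or more *Lcn2* UMIs after thinning, 3 genes were lower in the control and 8 were higher and 5 lower in the *Gli1 HHIPCKO* library, and as a mean over cells 17 were higher and 234 lower in the control and 205 and 654 in the *Gli1 HHIPCKO* library. In that thinned setting the thinned *Lcn2* counts only set the classes, and cells without a thinned *Lcn2* UMI were the negative class. Levels were summed from the unthinned counts. *Lcn2* itself is among the higher genes by rule, and nothing is read from these shares. The median log2 ratio over all genes tested was -0.06 and -0.10. Of the 4622 genes other than *Lcn2* tested in both libraries, 2 were called higher in both, *Lrg1* and *Dlk1*, 6 were called lower in both and none was called in opposite directions. *Dlk1* in both libraries and *Lrg1* in the control reached the detection needed, a UMI in at least 10% of a class, only in the members. They were thus tested through the class where they were higher.

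*Lrg1* (ENSMUSG00000037095, chromosome 17, 56119678 to 56122001) encodes a secreted acute phase glycoprotein. It went from 15.7 CPM in *Lcn2*-negative to 121 CPM in member cells of the control library, which gives a log2 ratio of 2.96 (95% interval 2.38 to 3.6). In the *Gli1 HHIPCKO* library it went from 61.3 to 195 CPM, with 1.67 (1.14 to 2.26). An *Lrg1* UMI was found in 25.8% of control and 46.3% of *Gli1 HHIPCKO* members, against 3.66% and 12% of *Lcn2*-negative cells. Across the alternative settings that gave a value the *Lrg1* log2 ratio ran from 2.04 to 3.21 in the control and from 1.54 to 2.20 in the *Gli1 HHIPCKO* library, so its call did not depend on them. *Dlk1* (ENSMUSG00000040856, chromosome 12, 109452823 to 109463336), a membrane ligand related to the Notch ligands, went from 21.5 to 62.1 CPM and from 17.5 to 61.5 CPM, with log2 ratios of 1.53 and 1.81. In both libraries it reached the detection needed only in the members. Its UMIs were concentrated: 111 control and 155 *Gli1 HHIPCKO* members with at least 2 *Dlk1* UMIs held 83.3% and 88.8% of them.

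Other genes among the 15 most raised, and *C3*, had positive log2 ratios in both libraries, but none of them was called in both. *Chil1* (ENSMUSG00000064246, chromosome 1, 134182176 to 134190181), a chitinase-like lectin, was at 1066 and 1917 CPM in control negative and member cells and at 1351 and 2926 CPM in the *Gli1 HHIPCKO* ones. Its log2 ratio was 0.85 (0.77 to 0.92) and 1.11 (1.00 to 1.23). The *Gli1 HHIPCKO* call of *Chil1* ended at 0.65 with classes set by *Lcn2* counts thinned to 2000 UMIs and members at 2 or more. *Slpi* (ENSMUSG00000017002, chromosome 2, 164354070 to 164389095), an inhibitor of neutrophil elastase, went from 48.3 to 87.8 CPM and from 92.0 to 223 CPM. The log2 ratio of *Slpi* was 0.86 and 1.28, and the *Gli1 HHIPCKO* call ended at 0.83 among cells of 3000 to 10000 UMIs. The lysozyme gene *Lyz1* (ENSMUSG00000069515, chromosome 10, 117287797 to 117292868) had log2 ratios of 0.76 and 1.06, the *Gli1 HHIPCKO* one ending its call under 5 settings, lowest at 0.51 under the same thinned setting, and *Lyz2* had 0.73 and 0.85. The complement gene *C3* was at 0.63 and 1.10 (0.83 in the *Gli1 HHIPCKO* library as a mean over cells), the histamine-synthesis gene *Hdc* at 1.02 and 0.79 (in the control 0.77 under the thinned setting, 0.93 with members at 2 or more *Lcn2* UMIs and 0.99 without the highest doublet scores), and the protease inhibitor gene *Spink5* at 0.92 and 0.79.

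Of the surfactant genes, *Sftpa1* had log2 ratios of 0.44 and 0.49, *Sftpd* 0.31 and 0.29, and *Sftpc* 0.21 and 0.36. None of the 13 surfactant production genes tested was called in either library, and their median log2 ratio was 0.14 and 0.17. Among the defence and acute phase genes other than *Lcn2*, 1 of 10 tested in the control and 5 of 10 in the *Gli1 HHIPCKO* library were called higher, with medians of 0.68 and 0.95, where 0.127% and 1.72% of all genes tested were. The control call was *Lrg1*, which reached the detection needed only in the members, as *C3* did in the *Gli1 HHIPCKO* library. The *Gli1 HHIPCKO* calls of *Chil1*, *Lyz1*, *C3* and *Slpi* each ended under an alternative setting. The list included *Lrg1*, *Chil1* and *Lyz1*, which were proposed as markers on earlier results of these data. *Retnla*, encoding a resistin-like secreted protein, went from 48.9 to 84.9 CPM in the control and from 4.38 CPM (2 UMIs) to 220.1 CPM in the *Gli1 HHIPCKO* library, where the log2 ratio was 5.65 (interval 3.80 to 8.70). *Retnla* reached the detection needed in that library only in the members, so it was tested through the class where it was higher. It was uneven as well, since 54 *Gli1 HHIPCKO* members with at least 10 *Retnla* UMIs held 78.0% of its UMIs, as 11 control members held 41%. *Mageh1*, *Dnajc12*, *Smim26*, *Tubb2a* and *Idh1* completed the 15 most raised genes in both libraries, with log2 ratios of 0.89, 0.84, 0.77, 0.92 and 0.68 in the control and 1.29, 2.07, 0.95, 0.73 and 1.11 in the *Gli1 HHIPCKO* library. The thinned setting with the lower threshold turned the *Gli1 HHIPCKO* ratio of *Dnajc12* to -0.0819 and ended the *Gli1 HHIPCKO* calls of *Mageh1*, at 0.116, and *Idh1*, at 0.081.

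The 15 genes most lowered in members of both libraries were not all called in both. The long noncoding RNA *Neat1* had log2 ratios of -0.88 in the control and -1.18 in the *Gli1 HHIPCKO* library, and *Gm26917* -1.58 and -1.80. The matrix genes *Eln* and *Col1a1* were at -0.92 and -0.87 in the control and -1.28 and -1.39 in the *Gli1 HHIPCKO* library. *Col1a2* and *Col3a1*, limited by the rule in both classes, were lower too. The club cell gene *Scgb1a1* had -1.92 and -1.12, and *Firre*, *Gm47283*, *Adamts10*, *Paxbp1*, *Bicc1*, *Cdk12*, *Zcchc7* and *Trim3* made up the rest of the 15. Among *Gli1 HHIPCKO* cells of 3000 to 10000 UMIs the sign turned for *Gm26917* (0.085), *Firre* (0.28), *Col1a2* (0.17), *Adamts10* (0.28), *Scgb1a1* (1.09) and *Eln* (0.0508). Thinning with members at 2 or more *Lcn2* UMIs, which changes both classes and drops shallow cells, ended the calls of *Gm26917*, at -0.21 in the control and -0.0102 in the *Gli1 HHIPCKO* library, and the *Gli1 HHIPCKO* calls of *Neat1* (-0.14), *Eln* (-0.0565), *Col1a1* (-0.28) and *Scgb1a1* (-0.29), so these lower values depended on that setting. It also ended, in control and *Gli1 HHIPCKO* cells, the calls of *Gm47283* (-0.036 and -0.62), *Col1a2* (-0.53 and -0.44) and *Adamts10* (-0.56 and -0.19). The *Gli1 HHIPCKO* call of *Firre* ended there too, at -0.23. With no *Col1a2* or *Col3a1* UMI allowed, *Scgb1a1* turned to 0.54 in the *Gli1 HHIPCKO* library.

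The second comparison stayed within the members and set cells with over 20 *Lcn2* UMIs against those with 3 to 5. It was chosen after the data had been seen, and it compared 60 with 879 control cells and 468 with 613 *Gli1 HHIPCKO* cells. In the control library 72 of 5664 genes tested (1.27%) were at least 2-fold higher and 138 (2.44%) at least 2-fold lower. In the *Gli1 HHIPCKO* library 18 of 5669 (0.318%) were higher and 2 (0.0353%) lower. The median log2 ratio of all genes tested was 0.01 and -0.05. At 11 to 20 against 3 to 5 the counts were 7 and 9 in the control and 3 and 3 in the *Gli1 HHIPCKO* library. With bins set by thinned *Lcn2* counts, 8 or more against 1 or 2 gave 104 and 240 in the control and 16 and 10 in the other library. Of the 5165 genes other than *Lcn2* tested in both libraries, 6 were called higher in both, *Lrg1*, *Itih4*, *Slpi*, *Pglyrp1*, *Chil1* and *Vnn1*, none was called lower in both and 1, *Scgb1a1*, was called in opposite directions. These 6 names come from the values themselves, and *Pglyrp1* reached the detection needed only in the cells over 20, with a UMI in 10% and 16.9% of them against 4.89% and 5.55% of those with 3 to 5.

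*Lrg1* went from 78.4 CPM at 3 to 5 *Lcn2* UMIs to 423 CPM over 20 in the control, with a log2 ratio (and interval) of 2.43 (2.16 to 2.69), and from 100.1 to 348 CPM in the *Gli1 HHIPCKO* library, with 1.80 (1.62 to 1.98). The share of cells with an *Lrg1* UMI went from 20.7% to 50% and from 30.0% to 67.1%. *Slpi* went from 74.1 to 169.5 CPM in the control and from 119 to 469 CPM in the *Gli1 HHIPCKO* members, log2 ratios of 1.19 and 1.98. *Chil1* had 1.16 and 1.05. *Itih4* (ENSMUSG00000021922, chromosome 14, 30886476 to 30902353), of the inter-alpha-trypsin inhibitor family of acute phase proteins, went from 30.0 to 69.7 CPM and from 31.9 to 93.2 CPM, log2 ratios of 1.22 and 1.55. The pantetheinase gene *Vnn1* had log2 ratios of 1.06 and 1.03. The peptidoglycan recognition gene *Pglyrp1* had 1.06 and 1.33, with 9 UMIs in the over-20 control cells and a control interval of -0.16 to 2.12. With cells of 11 to 20 *Lcn2* UMIs in place of those over 20, the *Lrg1* log2 ratio was 1.15 and 0.96, that of *Slpi* 0.59 and 0.52, of *Chil1* 0.48 and 0.40, of *Itih4* 0.34 and 0.57 and of *Vnn1* 0.47 and 0.20. *Pglyrp1* was at 0.79 in the control and at 10.6 and 13.9 CPM in the *Gli1 HHIPCKO* bins, too sparse there to be tested. Of these 6 genes only *Lrg1* was still past 2-fold, in the control. The 6 control members above 40 *Lcn2* UMIs held 4 of the 9 *Pglyrp1* UMIs, and without them *Pglyrp1* was at 12.8 CPM in the control.

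The *Gli1 HHIPCKO* members reached higher *Lcn2* counts and could be divided more finely, into 613, 695, 641, 325, 116 and 27 members with 3 to 5, 6 to 10, 11 to 20, 21 to 40, 41 to 80 and over 80 *Lcn2* UMIs. Across these bins *Lrg1* stood at 100.1, 137, 195, 262, 462 and 723 CPM, *Slpi* at 119, 147, 171, 312, 644 and 1281 CPM, and *Chil1* at 2124, 2399, 2804, 3765, 5368 and 6734 CPM. The haptoglobin gene *Hp* went from 273 CPM in the lowest to 1162 CPM in the highest of these bins, *Itih4* from 31.9 to 142 CPM, *C3* from 47.5 to 242 CPM and *Sftpd* from 2180 to 4437 CPM, while *Sftpc* went from 273220 to 251370 CPM. The 54 control members with 21 to 40 *Lcn2* UMIs had *Lrg1* at 430 CPM, *Chil1* at 3465 CPM and *Slpi* at 164 CPM. The 6 control members above 40 were too few to describe.

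**Figure D2:**
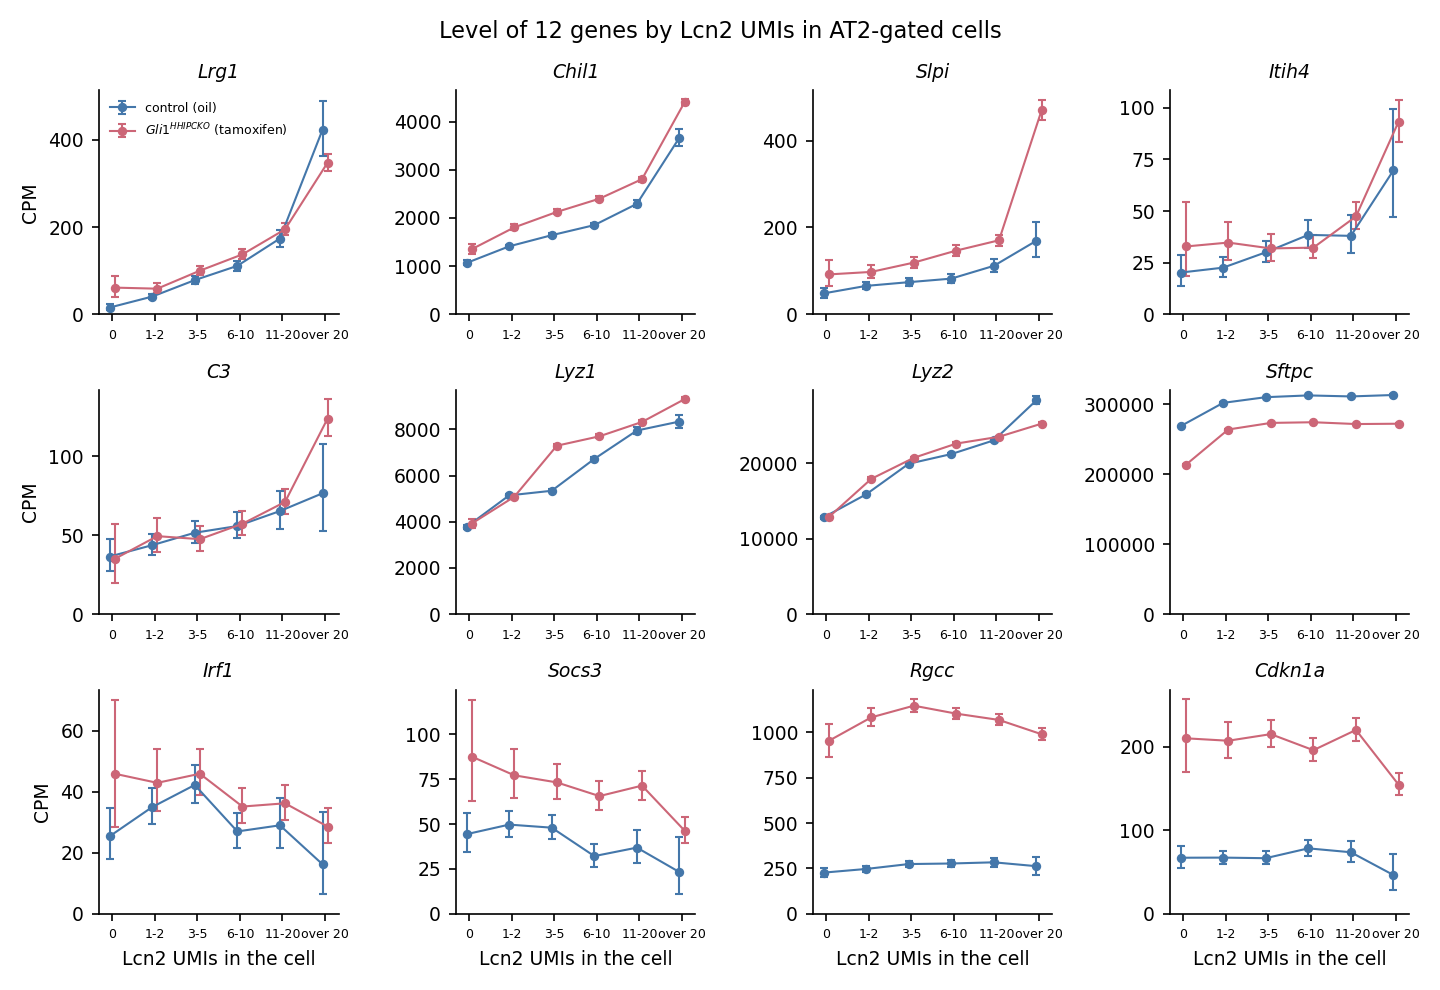
Level (CPM, with 95% Poisson intervals) of 12 genes against *Lcn2* UMIs per cell in gated AT2 cells of the control and *Gli1 HHIPCKO* libraries. *Lrg1*, *Chil1* and *Slpi* were higher in the bin over 20 than in the bin of 3 to 5 in both libraries, and *Sftpc* differed little.

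Further genes with higher levels at high *Lcn2* were picked out after their values were seen. *Ly6i* (ENSMUSG00000022586, chromosome 15, 74979534 to 74983430), of the Ly6 family of surface proteins, went from 5.63 to 111 CPM in the *Gli1 HHIPCKO* members, with a log2 ratio (and interval) of 4.30 (3.62 to 5.07), and from 1.82 to 39.5 CPM in the control members, where it was not among the genes tested. In the *Gli1 HHIPCKO* members it reached the detection needed only over 20, with 35.7% of cells against 2.28%. The 102 *Gli1 HHIPCKO* members with at least 2 *Ly6i* UMIs had a median of 40.5 *Lcn2* UMIs, and the 8 such control members had a median of 21. *Retnla* had log2 ratios of 0.57 and 3.57, *C3* 0.57 and 1.38, *Hp* 0.49 and 1.04, and the clusterin gene *Clu* 1.35 and 0.76. The calls among *C3*, *Hp* and *Clu* ended at 11 to 20 against 3 to 5 *Lcn2* UMIs for *C3* (0.58) and *Hp* (0.29) in the *Gli1 HHIPCKO* and for *Clu* (0.48) in the control members. *Saa3*, of the serum amyloid A family, had 43 UMIs in all *Gli1 HHIPCKO* members, 42 of them in cells over 20 *Lcn2* UMIs and 0 in cells of 3 to 5. With the 0 set to a floor of 3 counts over the class, *Saa3* was at least 12.6-fold higher, although only 11 members carried it. The complement factor gene *Cfb* had 34 UMIs in 29 *Gli1 HHIPCKO* members. *Camsap1*, *Ppa1*, *Tnfsf13os*, *Mettl1* and *Ly6e* also stood among the 15 most raised genes, with *Gli1 HHIPCKO* log2 ratios of 0.97, 1.03, 0.87, 0.76 and 0.86 and control ones of 0.89, 0.79, 0.79, 1.30 and 0.74. The *Gli1 HHIPCKO* call of *Ppa1* ended at 0.68 with 11 to 20 against 3 to 5 and at 0.67 with thinned bins, and the control call of *Mettl1* at 0.39 with 11 to 20.

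Among the 15 most lowered genes of this comparison, the transcription factor gene *Irf1* had log2 ratios of -1.38 in the control and -0.68 in the *Gli1 HHIPCKO* members between over 20 and 3 to 5 *Lcn2* UMIs. *Socs3*, an inhibitor of cytokine receptor signalling, had -1.05 and -0.66, and the stress gene *Gadd45b* -1.05 and -0.68. *Stat3* was at 0.64 and 0.22, *Cebpd* at 0.04 and 0.07, and *Nfkbia* at -0.68 and 0.29. *Vim*, the vimentin gene of stromal cells, was at -1.0 and -1.73, and *Mfge8*, which encodes a bridging protein in the uptake of dying cells, at -1.31 and -0.69. At 11 to 20 against 3 to 5 the control values of *Irf1*, *Socs3*, *Gadd45b* and *Mfge8* were -0.54, -0.38, -0.26 and -0.33, and the *Gli1 HHIPCKO* value of *Vim* was -0.74, each no longer past 2-fold.

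A few members carried most of the *Scgb1a1* and *Hbb-bs* UMIs. Over 20 against 3 to 5 *Lcn2* UMIs, *Scgb1a1* (ENSMUSG00000024653, chromosome 19, 9083636 to 9087958) had -4.69 in the control and 1.80 in the *Gli1 HHIPCKO* members, and the latter turned to -0.38 at 11 to 20 and to -1.34 with bins set by thinned *Lcn2* counts. Its control UMIs lay to 95% in 11 members with at least 10 of them, and 61.9% of its *Gli1 HHIPCKO* UMIs in 9 members. *Hbb-bs* had -4.60 and -0.12, turning to 0.61 in the control at 11 to 20, with 94.0% and 94.4% of its UMIs in 14 and 28 members. Of those 28, 39.3% were among the cells with the highest doublet scores, against 1.78% of all *Gli1 HHIPCKO* members. In cells over 20 the erythroid markers summed to 176.5 and 4194 CPM, the club markers to 764 and 1221 CPM, the fibroblast markers to 97.5 and 132 CPM and the immune markers to 4.77 CPM in the *Gli1 HHIPCKO* cells, with no UMI in the 60 control cells. *Hp*, counted in the club list and in the defence and acute phase list, made up 543 and 562 CPM of those club sums.

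Correlations with *Lcn2* over single cells were low among the genes compared, which had a UMI in at least 20% of the thinned members of each library and so left out *Lrg1*. Over 1758 control and 2389 *Gli1 HHIPCKO* members thinned to 2000 UMIs, *Chil1* had the highest Spearman correlation with *Lcn2* among 801 genes when each was ranked by its lower library, at 0.118 and 0.342. *Cxcl15*, a gene of the rule, followed at 0.0893 and 0.152, and *Sftpa1* was at 0.0612 and 0.19. Cells of a correlation share a library and are not replicates, thinning equalised their depth, and choosing members on *Lcn2* narrowed its range.

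*Lyz1* counts were uneven among the members, as among the other gated AT2 cells. No *Lyz1* UMI was found in 742 control members (41.8%) and 837 *Gli1 HHIPCKO* members (34.6%), while 679 (38.2%) and 1116 (46.2%) had 10 or more and held 98.7% and 99.1% of all *Lyz1* UMIs of the members. Of the cells with 1 or 2 *Lcn2* UMIs, 43.9% and 42.2% had no *Lyz1* UMI and 35.3% and 34.2% had 10 or more, and of the *Lcn2*-negative cells 48.2% and 50.3% had none and 22.9% and 18.0% had 10 or more. The other members, 356 and 464 cells, had 1 to 9, as did 13.7% and 14.8% of the fibroblast-gate cells, where no cell had 10 or more (upper limits 0.0805% and 0.0628%). The share of members with at least 10 *Lyz1* UMIs was 35.2%, 38.8%, 46.4% and 41.7% across the control bins of 3 to 5, 6 to 10, 11 to 20 and over 20 *Lcn2* UMIs, and 41.9%, 44.0%, 48.7% and 51.5% across the *Gli1 HHIPCKO* bins. Depth was higher in the higher bins too, and its part in this was not tested. *Lyz2* was at 26280 CPM in control members without *Lyz1* and at 13960 CPM in those with 10 or more, and at 29450 and 16260 CPM in the *Gli1 HHIPCKO* members. *Lrg1* was at 90.1 and 147.5 CPM in the same control classes and at 187.6 and 199 CPM in the *Gli1 HHIPCKO* ones. The lysozyme transcripts shared 10.5% of their 60-base stretches, so a part of the reads cannot be assigned between them.

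The third comparison set *Gli1 HHIPCKO* over control members, the comparison of the study carried into these cells. At least 2-fold higher were 48 of 5261 genes tested (0.912%), and 13 (0.247%) were at least 2-fold lower, with a median log2 ratio of 0.04 over all genes tested. With totals that left out mitochondrial and the top 20 genes, 33 were higher and 21 lower. In *Lcn2*-negative cells the same ratio called 91 of 3306 genes (2.75%) higher and 43 (1.3%) lower, with a median of 0.07. Of the 3300 genes tested in both classes, 18 were called higher in both, 2 lower in both and none in opposite directions. Counting intervals lay above 0 for 28.93% of the genes tested in members and below 0 for 20.51%, so most of those differences were small. Because *Gli1 HHIPCKO* members carried more *Lcn2*, the ratio was also taken within *Lcn2* bins, a choice made after seeing the data. The bin of 3 to 5 gave 48 higher and 16 lower genes of 4825, that of 6 to 10 gave 61 and 24 of 5262, that of 11 to 20 gave 110 and 42 of 5727, and the thin bin over 20 gave 380 and 101 of 5896.

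*Rgcc* (ENSMUSG00000022018, chromosome 14, 79288756 to 79301645), which encodes a regulator of cell cycle kinases, went from 276 CPM (266 to 287) in control to 1076 CPM (1059 to 1092) in *Gli1 HHIPCKO* members, with a log2 ratio (and interval) of 1.96 (1.90 to 2.02). It stood at 2.07 in *Lcn2*-negative cells and 2.06, 1.99, 1.91 and 1.91 in the bins from 3 to 5 up to over 20. *Cdkn1a* (ENSMUSG00000023067, chromosome 17, 29090976 to 29100727), the gene of a cyclin-dependent kinase inhibitor, went from 71.0 to 197 CPM, giving a log2 ratio of 1.47 (interval 1.36 to 1.59) and 1.65 in *Lcn2*-negative cells. The metallothionein gene *Mt1* (ENSMUSG00000031765, chromosome 8, 94179082 to 94180327) went from 223 to 650.0 CPM and had 1.54 in members and 1.51 in *Lcn2*-negative cells, and *Mt2* had 1.67 in members. Within the 4 bins *Cdkn1a* ran from 1.32 to 1.74 and *Mt1* from 1.32 to 1.88. Among the members themselves, *Rgcc* and *Cdkn1a* were not higher at high *Lcn2*: over 20 against 3 to 5, *Rgcc* had -0.06 and -0.21 and *Cdkn1a* -0.52 and -0.48 in control and *Gli1 HHIPCKO* members.

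The linker histone gene *Hist1h1c* went from 12.1 to 47.4 CPM, a log2 ratio of 1.97 in members and 2.42 in *Lcn2*-negative cells, and *Hist1h1e*, with which it shared 5.80% of 60-base stretches, had 1.42 in members. Among members *Hist1h1c* reached the detection needed only in the *Gli1 HHIPCKO* library, so it was tested through the library where it was higher. *Hist2h2ac* had 2.31. Also among the 12 most raised were *Gsta3*, a glutathione transferase gene, at 1.55, *Fmo2*, a monooxygenase gene, at 1.54 and the oxidative stress gene *Osgin1* at 1.66. *Ly6i* went from 46 to 523 UMIs, a log2 ratio of 2.89 that was 1.63, 1.83, 1.31 and 1.49 within the bins. It was detected in 1.80% of control and 11% of *Gli1 HHIPCKO* members, so it was tested through the library where it was higher. The immediate early genes *Atf3*, *Klf2*, *Klf6* and *Fos* were at 1.25, 1.32, 1.02 and 0.75 in members, and *Atf3* and *Fos* were at 1.19 and 0.61 in *Lcn2*-negative cells. Of the 16 immediate early genes tested, 3 were called and the interval lay above 0 for 16, beside 0.912% called higher and 28.93% with an interval above 0 among all genes tested, with a median of 0.56 in members and 0.57 in *Lcn2*-negative cells. The glucocorticoid response and metallothionein list had 3 of 9 genes called higher, beside the same 0.912%, and a median of 0.89 in members, and 0.88 in *Lcn2*-negative cells.

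For genes that varied with *Lcn2*, the ratio over all members also reflects that the *Gli1 HHIPCKO* members carried more *Lcn2*, and the plot of library ratios sets it beside the ratios within bins. *Slpi* was at 1.35 over all members, 0.93 in *Lcn2*-negative cells and 0.68, 0.84, 0.61 and 1.47 in the bins, so its call ended within every bin but the thin highest. *Chil1* was at 0.61 over all members, 0.34 in *Lcn2*-negative cells and 0.37, 0.37, 0.29 and 0.26 in the bins. *Lyz1* was at 0.35 overall and between 0.07 and 0.45 in them. *Lrg1* was at 0.68 in members and 1.97 in *Lcn2*-negative cells, a difference of -1.29 (-2.08 to -0.49), and at 0.35, 0.31, 0.16 and -0.28 within the bins. Among *Lcn2*-negative cells *Lrg1* reached the detection needed only in the *Gli1 HHIPCKO* library. Its ratio there was thus tested through the library where it was higher, and nothing is read from that difference. *Retnla* was at 1.37 over all members and turned to -0.51 in the bin of 3 to 5, with 0.82 and 0.44 in the next bins, where its call ended, and 2.49 over 20, where 60 control cells bear the ratio. *Dlk1* was at -0.01 and *Sftpc* at -0.19.

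**Figure D3:**
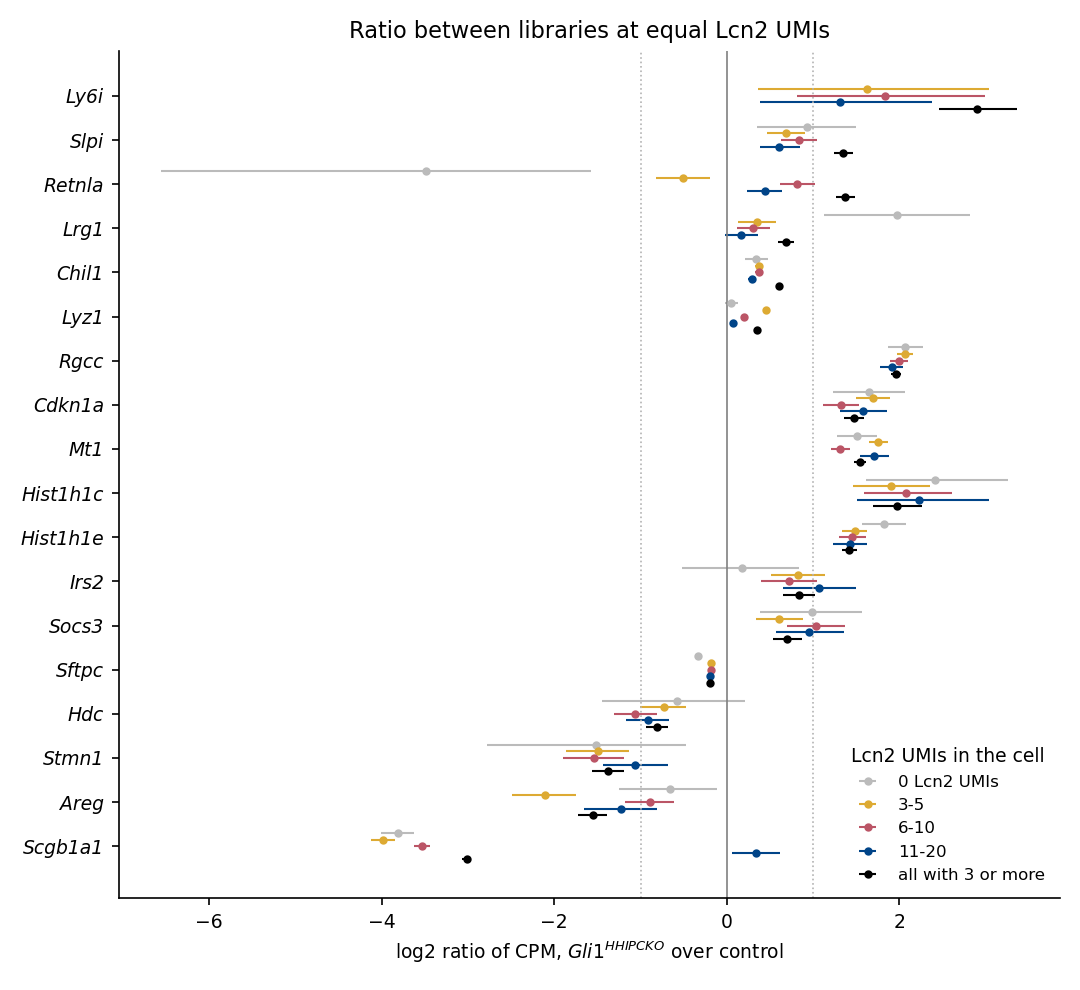
Log2 ratio of *Gli1 HHIPCKO* over control for 18 genes in *Lcn2*-negative AT2 cells, in *Lcn2* bins and in all members, with 95% exact binomial intervals and dotted lines at 2-fold. *Rgcc*, *Cdkn1a* and *Mt1* were past 2-fold higher in every class shown, and *Lrg1* was so only in *Lcn2*-negative cells, where it reached the detection needed only in the *Gli1 HHIPCKO* library.

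Lower in *Gli1 HHIPCKO* members were the epidermal growth factor receptor ligand gene *Areg*, at 82.2 and 27.9 CPM with a log2 ratio of -1.56 (-1.73 to -1.39), and *Stmn1*, of a tubulin-binding protein, at 67.9 and 26.1 CPM with -1.38. The ratio of *Areg* was -0.89 in the bin of 6 to 10, which ended its call there, and -0.66 in *Lcn2*-negative cells, where *Stmn1* had -1.52. *Adamts1*, a metalloprotease gene, had -1.26, the repressor gene *Bcl6* -1.23, the aspartic protease gene *Pgc* -1.23, the kinase gene *Plk2* -1.11 and the potassium channel gene *Kcnj2* -1.17. *Tppp3* was at -1.42, and *Gm45332* and *Gm28592* were at -1.37 and -1.35. *Bcl6* was at -0.99 and *Gm28592* at -0.33 in the bin over 20, and *Plk2* at -0.87 in that of 3 to 5, which ended their calls there. *Scgb1a1* had -3.02 over all members, -0.44 under the thinned setting and -0.35 among cells of 3000 to 10000 UMIs, but 0.33 in the bin of 11 to 20 and 2.51 over 20. The Y-linked gene *Eif2s3y* was at least 156-fold lower, with the 0 UMIs of the *Gli1 HHIPCKO* members set to a floor of 3.

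The log2 ratio of *Gli1 HHIPCKO* over control differed between members and *Lcn2*-negative cells, by its counting interval, for a part of the 3300 genes tested in both: 151 had a higher and 227 a lower ratio in members. The largest positive difference was that of *Cd320*, the transcobalamin receptor gene, at 1.92, and *Pdzd11*, *Mrpl36*, *Commd4*, *Rnf146*, *Mrps12* and *Mrps23* were among the 8 largest, with *Xist*, whose value rested on a bound. The lowest was that of *Hbb-bs* at -2.60, followed by *Hbb-bt*, *Lamc1*, *Maged2*, *Lrg1*, *Msrb3*, *Cep170b* and *Gars*. The *Lcn2*-negative ratios behind these values moved with the processing. When members were set at 2 or more *Lcn2* UMIs after thinning and shallower cells were left out, that of *Cd320* went from -2.14 to -0.68, of *Pdzd11* from -1.60 to -0.45, of *Mrpl36* from -1.48 to -0.31, of *Commd4* from -1.30 to -0.0194, of *Hbb-bs* from 2.46 to 0.95, of *Lamc1* from 1.25 to 0.20 and of *Maged2* from 1.55 to 0.29. *Rnf146*, *Mrps12*, *Mrps23* and *Hbb-bt* lost their calls in these cells as well. Erythroid markers were at 26304 CPM in *Gli1 HHIPCKO* *Lcn2*-negative cells, and their part in this was not tested.

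For the lists between the libraries, all genes tested in members had a median of 0.04, with 0.912% called higher, 0.247% called lower and 28.93% with an interval above 0. The 9 NF-kB and interleukin 1 response genes had a median of 0.39 with 6 intervals above 0 and no call, and the 8 genes of the interleukin 6 family, STAT3 and C/EBP had 0.31 with 7 above 0. The CDK inhibitors and senescence genes had 1 of 5 called higher, 4 intervals above 0, none below and a median of 0.59. The p53 targets had 2 higher and 1 lower of 7, 3 intervals above and 3 below 0, and a median of 0.02. *Cdkn1a* counts in both of these lists and in that of transitional epithelium. AT2 growth factor and Wnt genes had 1 of 7 called, *Rgcc*, and a median of 0.07. Of the 8 endoplasmic reticulum stress genes *Herpud1* was called, with a median of -0.16. Cell cycle genes had 1 of 4 called lower, *Stmn1*, with 0.01, and transitional epithelium genes 1 higher and 1 lower of 13 with -0.06. Defence and acute phase genes had 1 of 10 called higher, *Slpi*, and a median of 0.25, while 1 of 13 surfactant genes, *Pgc*, was called lower with 0.09. For 9 further lists without a call in members, medians were -0.13 for chemokines, 0.21 for interferon response, 0.22 and 0.11 for MHC class I and II presentation, 0.00 for lipid and sterol synthesis, -0.08 for AT1, 0.00 for hypoxia, 0.14 for iron handling and 0.04 for oxidative stress.

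By *Lcn2* bin, over 20 against 3 to 5, the defence and acute phase list had 4 of 11 genes called higher in the control and 6 of 11 in the *Gli1 HHIPCKO* members, with medians of 0.57 and 1.04 beside 0.01 and -0.05 for all genes tested, of which 1.27% and 0.318% were called higher. Both counts include *Pglyrp1*, which reached the detection needed only in the cells over 20 and whose control interval held 0. At 11 to 20 against 3 to 5 the control calls of *Slpi*, *Chil1* and *Pglyrp1* and the *Gli1 HHIPCKO* calls of *Lrg1*, *Slpi*, *Chil1*, *C3* and *Hp* did not hold. In the control 2.44% of all genes tested were called lower, among them *Nfkbiz*, *Socs3* and *Irf1*, 1 each of the 11, 8 and 4 genes of the NF-kB, interleukin 6 and interferon lists, and *Cdkn1c* and *Ypel3*, 2 of the 6 CDK inhibitor and senescence genes. *Gclm* of the oxidative stress and *Spry2* of the AT2 growth factor list were lower and *Creld2* of the endoplasmic reticulum stress list was higher there. Control intervals lay below 0 for 1 of the 6 CDK inhibitor and senescence genes and for none of the AT2 growth factor list. The *Spry2* interval thus held 0. Among all genes tested in the control, 4.43% had an interval above 0 and 4.80% below 0. The NF-kB list had medians of 0.28 and 0.25, the interleukin 6 and STAT3 list -0.26 and -0.08, the interferon list 0.08 and 0.00, and the chemokine list 0.54 and 0.38, with *Csf2*, 1 of its 3 genes tested, called higher in the *Gli1 HHIPCKO* members. *Csf2* reached the detection needed only in the cells over 20, 10.3% against 4.73%, and stood at 9.38, 10.2 and 8.78 CPM in the bins up to 20. Surfactant genes had 0.06 and 0.00, lipid synthesis genes -0.11 and -0.02, and immediate early genes -0.13 and -0.24 with 10 of 16 intervals below 0 in the *Gli1 HHIPCKO* members, beside 10.51% of all genes tested. The transitional epithelium list had 1 gene called higher in the control, *Clu*, and medians of -0.01 and 0.10, and the iron handling list had 0.12 and -2.6e-05. MHC class I genes, with 0.01 and 0.21, had none called.

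Genes of the hedgehog and insulin-like growth factor (IGF) pathways were sparse in these cells. *Hhip* (ENSMUSG00000064325, chromosome 8, 79965851 to 80058006) had 27 UMIs in control and 27 in *Gli1 HHIPCKO* members, 2.71 and 1.78 CPM, against 747 and 178 CPM in the fibroblast gate. *Gli1* (ENSMUSG00000025407, chromosome 10, 127329882 to 127341974) had 1 UMI in the members of each library, and its level in the fibroblast gate was 9.0 and 23.1 CPM. *Ptch1* was at 12.3 and 13.3 CPM in members and 64.5 and 113 CPM in the fibroblast gate. The ligand gene *Shh* had 43 and 51 UMIs in members, 4.32 and 3.35 CPM. None of the 9 genes of the hedgehog list reached the detection needed to be tested. The receptor genes *Igf1r* and *Insr* had log2 ratios of 0.20 and 0.46 between *Gli1 HHIPCKO* and control members, and the adaptor gene *Irs2* 0.84, with 0.18 in *Lcn2*-negative cells. The 8 IGF and insulin pathway genes tested had a median of 0.24 and no call.

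The 250 bases before the RefSeq start of the gene (GRCm38.p6) were searched on both strands for a STAT motif (TTCNNNGAA), an NF-kB motif (GGGNNTTCC) and a C/EBP motif (TTGCNNAA). Of 26 named higher genes, 18 had a promoter in the table: 1 held the STAT, 2 the NF-kB and 5 the C/EBP motif. *Idh1*, with 2 promoters in the table, held the NF-kB motif in 1 of them. Of all 32851 promoters 7.02%, 4.98% and 9.56% held them, and *Lrg1* and *Chil1* held none. A match is a description of sequence and no evidence of binding. *Lcn2* (minus strand, chr2:32387740-32387989) held the C/EBP motif 216 to 209 bases before its start, and *Slpi* (minus strand, chr2:164356508-164356757) held it 241 to 234 bases before. The RefSeq sequences read 5′ to 3′ on the strand of the gene, with the motif in capitals.
Lcn2: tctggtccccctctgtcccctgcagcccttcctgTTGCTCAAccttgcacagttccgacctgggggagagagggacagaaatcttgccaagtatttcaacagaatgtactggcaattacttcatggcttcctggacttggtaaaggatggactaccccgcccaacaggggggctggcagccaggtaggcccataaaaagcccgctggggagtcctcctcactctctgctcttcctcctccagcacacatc
Slpi: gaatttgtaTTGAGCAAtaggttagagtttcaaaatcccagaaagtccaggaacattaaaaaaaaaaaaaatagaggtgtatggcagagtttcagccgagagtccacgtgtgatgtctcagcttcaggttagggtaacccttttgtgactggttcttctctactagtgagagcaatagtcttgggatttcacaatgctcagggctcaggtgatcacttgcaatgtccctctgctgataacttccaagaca

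*Itih4* (plus strand, chr14:30886226-30886475) held the STAT motif 51 to 43 bases and *Pglyrp1* (plus strand, chr7:18884440-18884689) the NF-kB motif 232 to 224 bases before the start, and their RefSeq sequences are given in the same way.
Itih4: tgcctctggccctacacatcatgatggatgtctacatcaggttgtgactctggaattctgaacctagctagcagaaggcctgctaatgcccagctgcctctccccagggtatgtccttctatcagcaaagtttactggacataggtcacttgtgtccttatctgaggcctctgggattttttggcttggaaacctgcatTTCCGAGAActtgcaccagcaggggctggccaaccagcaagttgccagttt
Pglyrp1: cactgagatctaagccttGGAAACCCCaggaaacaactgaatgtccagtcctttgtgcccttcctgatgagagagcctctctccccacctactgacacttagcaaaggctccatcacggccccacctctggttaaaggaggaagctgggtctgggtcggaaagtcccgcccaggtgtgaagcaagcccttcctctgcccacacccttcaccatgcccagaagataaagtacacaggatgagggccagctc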

How the data were processed

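Sorted lung cells of 1 control and 1 *Gli1 HHIPCKO* mouse were profiled by droplet RNA sequencing. The deposited notes and the study's methods name different Illumina instruments. The authors aligned reads to mm10 and deposited UMI counts per gene and cell without normalization, 32285 genes by 10999 and 12350 cells. The processing notes name Cell Ranger 3.1.0 and the matrix headers 6.1.0, and the study's methods name a 5′ kit where the sample labels name a 3′ kit.

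Cells with 200 to 6000 genes and at most 10% of UMIs from mitochondrial genes were kept, 10917 and 12115 cells from 43291709 and 52338969 deposited UMIs. The members held 9947799 and 15206028 UMIs, at which *Lrg1* in the control members was at 121 CPM with an interval of 115 to 128. The choice of these cells and of the lists was made with earlier results of these data known.

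UMIs were summed over the cells of each class and library and scaled to 1e+06. A gene was tested when at least 10% of the cells of either class had a UMI and both classes together had at least 50 UMIs, and called at 2-fold or more. A count of 0 was set to a floor of 3 counts over the class for a bound. Levels carry exact Poisson, shares Clopper-Pearson and ratios exact conditional binomial 95% intervals. A difference of log2 ratios carries a normal 95% interval from the counts. Members with over 20 and with 3 to 5 *Lcn2* UMIs, and the *Lcn2* bins of the library comparison, were compared by a choice made after seeing the data. The fibroblast gate took cells with at least 10 UMIs of *Col1a2* and *Col3a1* and at most 1 of the 7 AT2 genes.

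Named genes were those of the marker and gene lists and, by rule, the 15 largest and smallest log2 ratios of members over *Lcn2*-negative cells, ranked by the library nearer 0 with the same sign in both (the same for the bins, added later), the 12 largest and smallest of *Gli1 HHIPCKO* over control, the 8 largest and smallest differences of that ratio between the classes, the 10 genes with the highest Spearman correlation with *Lcn2*, and 5 sex-linked genes. The 23 lists covered surfactant production, defence and acute phase secretion, chemokines, NF-kB and interleukin 1 response, interleukin 6, STAT3 and C/EBP, interferon response, MHC class I and II presentation, lipid and sterol synthesis, transitional epithelium, AT1, cell cycle, CDK inhibitors and senescence, p53 targets, glucocorticoid response and metallothioneins, immediate early genes, hypoxia, iron handling, IGF and insulin, hedgehog, endoplasmic reticulum stress, oxidative stress, and AT2 growth factor and Wnt genes. Of their symbols *Ctgf* was not in the files. Marker lists of 12 cell types were summed per class.

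Alternatives were other *Lcn2* thresholds, thinning to 2000 UMIs with members at 2 or more *Lcn2* UMIs and shallower cells left out, a mitochondrial limit of 5%, 5 of the 7 AT2 genes, no *Col1a2* or *Col3a1* UMI, removal of the 8% of cells with the highest Scrublet scores (doublets were otherwise kept), cells of 3000 to 10000 UMIs, the mean over cells, totals without mitochondrial and the top 20 genes, ratios centred on the median, and detection in 20% of cells or none required. In the thinned alternatives, thinned *Lcn2* counts set the classes, and gene levels were summed from unthinned counts. The work was done in Python 3.11.15 with scanpy 1.11.5, pandas 2.3.3, numpy 2.4.6, scipy 1.17.1 and matplotlib 3.10.9, and the procedure was tested on simulated data.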

Additional observations from a re-analysis of the deposited data

Results flagged for a closer look

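*Scgb1a1* moved in opposite directions in the 2 libraries. Between members with over 20 and with 3 to 5 *Lcn2* UMIs its log2 ratio was -4.69 in the control and 1.80 in the *Gli1 HHIPCKO* library, and the difference between the libraries was not tested. A few members held most of its UMIs in each library, 11 in the control and 9 in the *Gli1 HHIPCKO* library. The *Gli1 HHIPCKO* value turned to -0.38 with 11 to 20 against 3 to 5 *Lcn2* UMIs and to -1.34 with 8 or more against 1 or 2 after thinning, the direction of the control.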

How the results depend on the processing

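Each group had 1 sample, so no replicate could be left out. Of 5914 values for named genes, 5152 stayed within their counting interval, 745 left it with the same sign or without a call, and 17 called values changed sign. The sign was checked only for called values, so an uncalled value inside its interval may have changed sign. Of 138 counts and shares 77 stayed within 1.5 times the count or within the interval of the share and 61 did not. Of 26 counts in *Lcn2*-negative cells 17 did and 9 did not, and 1302 of 1609 list medians moved by less than 0.1. Where no construction is named, the cause was not tested.

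The share of gated AT2 cells that were members, 54.6% in the control and 80.9% in the *Gli1 HHIPCKO* library, became 68.4% and 87.8% at 2 or more *Lcn2* UMIs, 34.7% and 67.0% at 5 or more, 44.4% and 68.8% at 2 or more after thinning, 56.7% and 82.5% with 5 of the 7 AT2 genes, and 62.8% and 85.7% with 3000 to 10000 UMIs. With a mitochondrial limit of 5% the *Gli1 HHIPCKO* share was 82.4%. It was higher in the *Gli1 HHIPCKO* library under each of these.

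Detection in 20% of cells tests fewer genes and dropping the requirement tests more. Counts of called genes fell or grew by construction. Members over *Lcn2*-negative cells, control, 6 higher and 11 lower, became 3 and 2 at 20%, and 80 and 182 without the requirement. The *Gli1 HHIPCKO* counts of 89 and 140 became 22 and 32, and 428 and 932. For *Gli1 HHIPCKO* over control members, 48 and 13 became 24 and 4, and 177 and 111. Over 20 against 3 to 5 *Lcn2* UMIs, 72 and 138 in the control became 41 and 24, and the lower count 454. In the *Gli1 HHIPCKO* library 18 and 2 became 11 and 0, and 32 and 24.

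The mean over cells gave 17 higher and 234 lower genes in members over *Lcn2*-negative cells of the control, 205 and 654 in the *Gli1 HHIPCKO* library, and 6 lower genes by bin in the *Gli1 HHIPCKO* library. Without a *Col1a2* or *Col3a1* UMI the counts were 15 and 19 in the control and 217 higher in the *Gli1 HHIPCKO* library, where *Scgb1a1* turned to 0.54. Among cells of 3000 to 10000 UMIs they were 13 higher in the control, 185 higher in the *Gli1 HHIPCKO* library and 12 lower by bin in the *Gli1 HHIPCKO* library. There *Gm26917* turned to 0.085, *Firre* to 0.28, *Col1a2* to 0.17, *Adamts10* to 0.28, *Scgb1a1* to 1.09 and *Eln* to 0.0508. Thresholds of 2 and 5 *Lcn2* UMIs gave 3 and 11 higher genes in the control. Members at 2 or more *Lcn2* UMIs after thinning, with shallower cells left out, left 3 genes lower in the control, and 8 higher and 5 lower in the *Gli1 HHIPCKO* library. By bin, 8 or more against 1 or 2 thinned *Lcn2* UMIs gave 240 lower genes in the control and 10 in the *Gli1 HHIPCKO* library. Under the thinned settings *Dnajc12* turned to -0.0819 in *Gli1 HHIPCKO* cells, *Scgb1a1* to -1.34 by bin, and the library ratio of *Vim* in *Lcn2*-negative cells to -0.0131. Without mitochondrial and the top 20 genes, 7 genes were lower in the control and 21 lower in *Gli1 HHIPCKO* over control. Centring gave 7 lower in the control, 89 lower in the *Gli1 HHIPCKO* library and 1 lower by bin in the *Gli1 HHIPCKO* library.

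Of the settings chosen after seeing the data, 11 to 20 against 3 to 5 *Lcn2* UMIs left 7 higher and 9 lower genes in the control and 3 higher in the *Gli1 HHIPCKO* library. *Gm47283* turned to 0.29, *Hbb-bs* and *Hbb-bt* to 0.61 in the control, and *Scgb1a1* to -0.38 in the *Gli1 HHIPCKO* library. Within bins, *Gli1 HHIPCKO* over control called 110 higher and 42 lower genes at 11 to 20, 380 and 101 over 20, where 60 control cells bear the ratio, and 24 lower at 6 to 10. *Retnla* turned to -0.51 at 3 to 5, and *Scgb1a1* to 0.33 at 11 to 20 and 2.51 over 20.

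Depth limits the *Lcn2*-negative class most, with 183 *Gli1 HHIPCKO* cells of a median of 1662 UMIs.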

Other observations

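The limits of these values are those of 1 mouse per group. *Lcn2* chose the members and was found in a low share of fibroblast-gate cells, members were deeper than the cells they were set against, and the libraries differed in their *Lcn2* range, so a ratio over all members mixes level and composition. The mice differed in sex-linked genes, in tamoxifen or oil and in library. The sort mixed stromal and epithelial cells at a set ratio, so no share of the lung is given. The 5′ or 3′ kit could not be settled from the counts, and reads of like transcripts, *Lyz1* with *Lyz2* or *Hbb-bs* with *Hbb-bt* (52.5% of 60-base stretches shared), cannot all be assigned.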
